A study of Mus musculus with 48 samples.

Results

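The 9 genes described here encode the molecules by which blood leukocytes roll along, adhere to and cross the vessel wall. Icam1, Vcam1, Sele and Selp are made on the side of the vessel, and Selplg, Itgal, Itgam, Itgb2 and Itga4 on the side of the leukocyte. They were chosen by name, for their textbook roles and with earlier results of these data known, out of 18782 genes in the table of counts, and all 9 passed the filter on low counts that left 14431 genes to be tested. RNA came from the thoracic aorta (ascending aorta, arch and proximal descending aorta) of wild-type C57BL/6J mice, 48 libraries in all. Control mice drank plain water, and the others drank 0.4% β-aminopropionitrile (BAPN) for 28 days from 3 weeks of age. BAPN blocks lysyl oxidase, which joins elastin and collagen fibres to each other. BAPN-treated mice alive at the end were grouped by what was found in the aorta, either no lesion (NonAD) or dissection or aneurysm (AAD), so the groups follow outcome and hold survivors only. Vessels were perfused with saline. The methods name lesioned segments as the source of the RNA, and which segments were taken from mice without a lesion is not given in the sources used here. Each library was 1 mouse, so p-values measure the spread between mice. The male groups were MaCon (10 mice), MaNonAD (4) and MaAAD (7), and the female groups were FeCon (10), FeNonAD (8) and FeAAD (9).

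In the adhesion cascade, P-selectin (Selp) and E-selectin (Sele) on activated endothelium catch passing leukocytes by binding the glycoprotein PSGL-1 (Selplg), and the cell rolls. Chemokine signals then open the integrins on the leukocyte. LFA-1 (Itgal with Itgb2) and Mac-1 (Itgam with Itgb2) hold on to ICAM-1, and VLA-4 (Itga4 with Itgb1) holds on to VCAM-1. In the aorta these molecules act at the luminal endothelium and at the small vessels of the adventitia, and VCAM-1 is also made by activated smooth muscle cells.

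Library totals ranged from 13548000 to 17281273 counts. Levels are in CPM, here a gene's count scaled to a common library size (counts per 1e+06) after TMM normalization. Some libraries stood apart in the RNA of cell types they held. The summed CPM of 5 pan-leukocyte markers (Ptprc, Coro1a, Laptm5, Cd53 and Cd52) ranged from 26.2 to 157 in MaCon, 91.9 to 192 in MaNonAD, 181 to 790 in MaAAD, 38.6 to 102 in FeCon, 46.9 to 223 in FeNonAD and 124 to 1055 in FeAAD, and all 5 rose in AAD in both sexes. All 4 neutrophil markers tested rose in AAD in both sexes, and the fifth, Ly6g, had at most 7 counts in any library. The summed CPM of the 5 had a median of 2.85 in MaCon, 21.3 in MaAAD, 2.45 in FeCon and 10.9 in FeAAD. The highest sums were 235 in MaAAD7 (next 54.6) and 878 in FeAAD5 (next 200). In FeAAD and FeCon the median was 8.67 and 1.29 CPM for Csf3r and 0.244 and 0.141 CPM for Cxcr2. It was 1.30 and 0.428 CPM for S100a8 and 0.942 and 0.556 CPM for S100a9. All 5 macrophage markers rose in AAD in both sexes, their summed CPM having a median of 176 in MaCon, 623 in MaAAD, 204 in FeCon and 441 in FeAAD. The summed CPM of 7 endothelial markers ranged from 459 to 745 in MaCon, 429 to 807 in MaAAD, 459 to 845 in FeCon and 274 to 791 in FeAAD, with 2 markers that rose in MaAAD, 2 that rose and 1 that fell in FeAAD. The highest libraries were MaAAD7 and FeAAD5 for the pan-leukocyte list in their groups, FeNonAD8 among FeNonAD, and MaCon2 among MaCon, where 5 T cell markers summed to 99.9 CPM against at most 11.2 in any other MaCon library. FeCon10 had 591 CPM of heart muscle markers against at most 148 in the other FeCon libraries. FeAAD9 had the lowest endothelial sum (274) and the lowest fibroblast sum (597, next lowest in FeAAD 1135) of the 48 libraries and the highest B cell sum (26.2). MaAAD7 had 390 CPM of heart muscle markers against at most 54.9 in other MaAAD libraries, and MaCon6 281 against at most 82.4 in other MaCon libraries. MaAAD1 had 3160 CPM of fat markers against at most 582 in other MaAAD libraries, and was the lowest of them for Vcam1, Sele, Selp, Itgam and Itga4. In whole tissue, fewer cells of a type and less RNA per cell cannot be told apart.

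**Figure D1:**
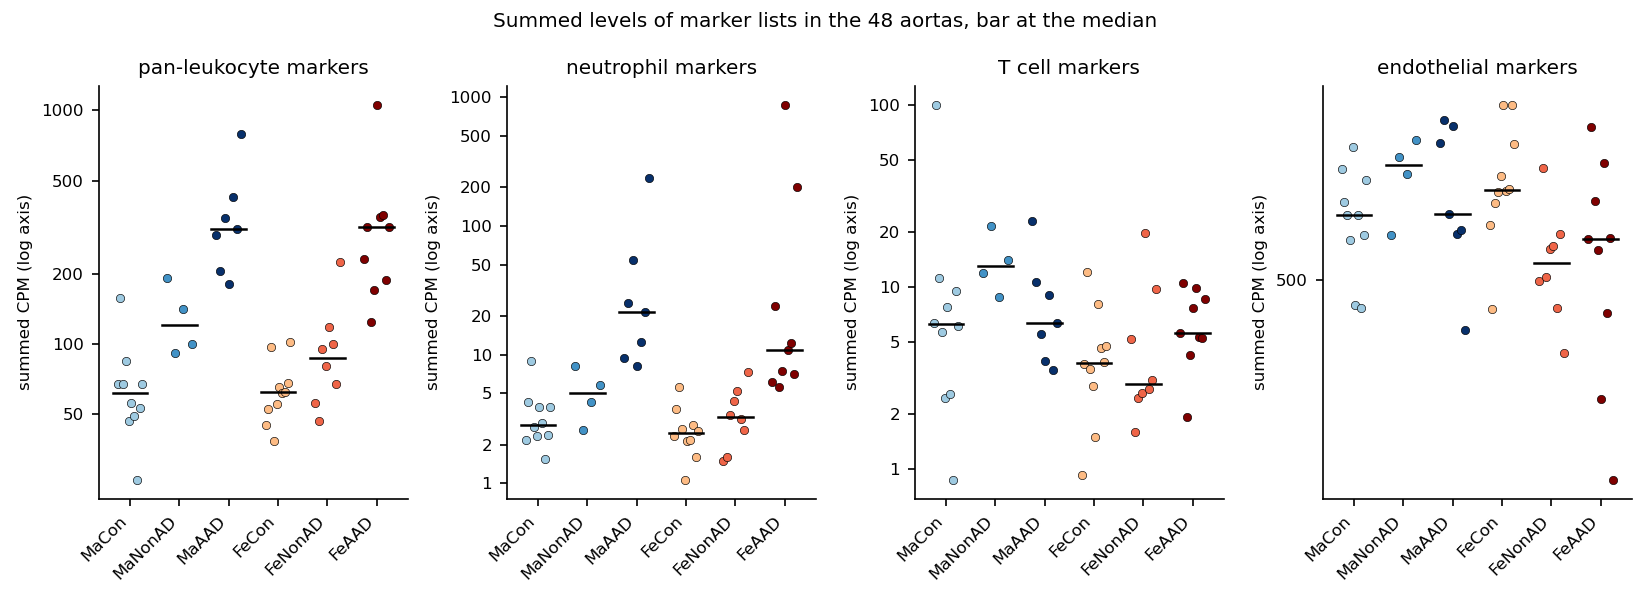
Summed CPM of the pan-leukocyte, neutrophil, T cell and endothelial marker lists (log axes) in each of the 48 aortas by group, with a bar at the median. The median pan-leukocyte sum was 61.7 CPM in MaCon and 312 CPM in MaAAD, and the endothelial sum was 607 and 610 CPM in the same groups.

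The question was whether these genes differed with BAPN treatment, with the lesion and between the sexes. Between MaAAD and MaCon, 8 of the 9 genes rose, Itgal being the exception (edgeR's quasi-likelihood test, Benjamini-Hochberg adjusted p under 0.05 over all genes tested), where 18.9% of all genes rose. Of these, 6 also had a log2 fold change of at least 1 and are called DEGs, against 9.18% of all genes. Between FeAAD and FeCon 8 of the 9 rose as well, and here Icam1 was the exception, where 23.8% of all genes rose. There were 6 DEGs among them, against 9.94% of all genes. The median log2 fold change of the 9 genes was 2.16 in males, where that of all genes was -0.03, and 1.51 in females, where that of all genes was 0.00.

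In BAPN-treated mice without a lesion, few of the genes passed the test. Vcam1 alone rose between MaNonAD and MaCon, and as a DEG, against 0.443% of all genes that rose and 0.381% that were DEGs with a higher level. At an unadjusted p under 0.05 there were 6 members (Vcam1, Sele, Selp, Selplg, Itgam and Itgb2), against 12.0% of all genes. DESeq2 called 1 member by adjusted p, Vcam1, and 96 DEGs over all genes, where edgeR had 69. Between FeNonAD and FeCon 0 of 9 rose, against 6.87% of all genes and 1.67% as DEGs. In that comparison 2 members had an unadjusted p under 0.05 in edgeR, Selplg with a higher and Icam1 with a lower level in FeNonAD, against 28.9% of all genes. DESeq2 called 0 members by adjusted p, and 495 DEGs over all genes, where edgeR had 397. The members' median log2 fold change was 0.88 in MaNonAD and 0.30 in FeNonAD. Between AAD and NonAD, Itgam alone rose in males by edgeR, where 0.388% of all genes rose and 0.353% were DEGs with a higher level. DESeq2 called 5 members there by adjusted p, and 518 DEGs over all genes, where edgeR had 51. In females 7 of 9 rose by edgeR, against 13.2% of all genes, and 6 were DEGs, against 6.79%. Comparisons that share a control group or a NonAD group are not independent of each other. The plot of fold changes sets the 6 comparisons side by side.

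**Figure D2:**
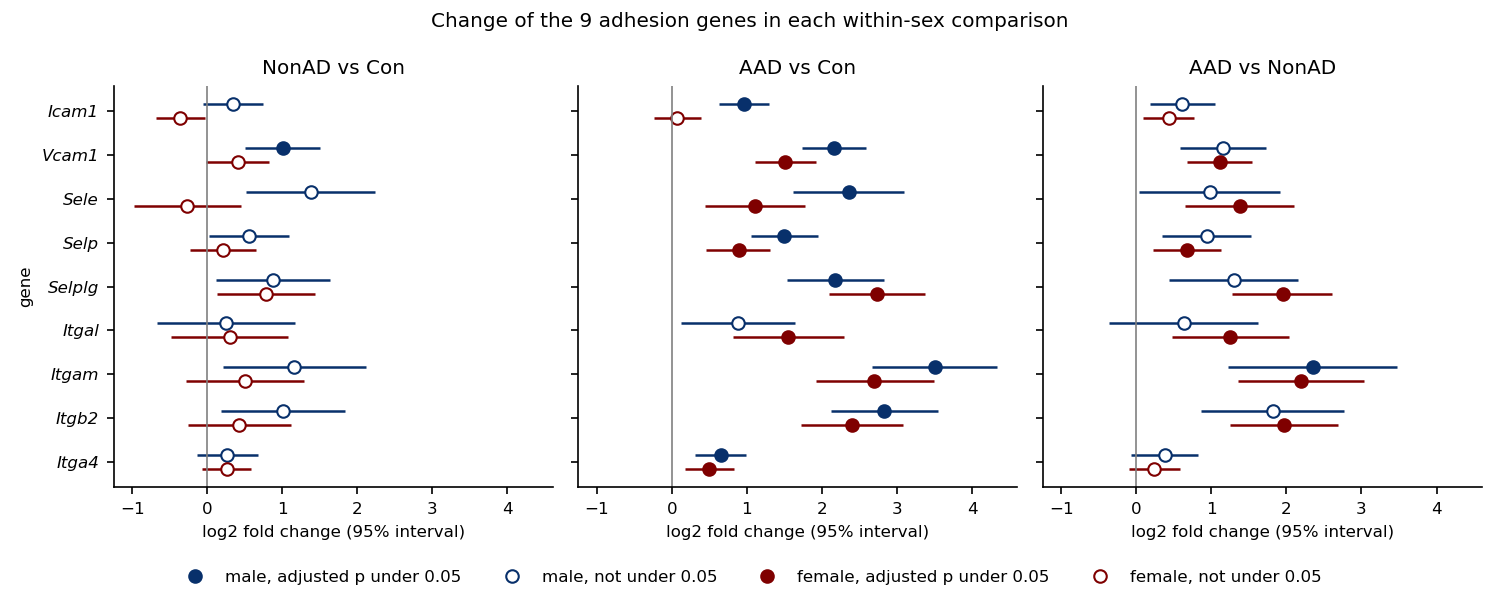
Log2 fold change of the 9 genes with its 95% interval in the 6 within-sex comparisons, males in blue and females in red. Filled points had an adjusted p under 0.05: in AAD vs Con these were 8 genes in males and 8 in females, with Icam1 at 0.96 in males and 0.07 in females.

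Counted by libraries, 6 genes (Icam1, Vcam1, Sele, Selp, Itgam and Itgb2) were higher in every MaAAD library than in any MaCon library, as were 6.14% of all genes. Between FeAAD and FeCon this held for 4 genes (Vcam1, Selplg, Itgam and Itgb2) and for 3.63% of all genes. Icam1, Itgam and Itgb2, 3 of the 9, had every MaAAD library above every MaNonAD library, as did 2.97% of all genes. No member separated FeAAD from FeNonAD in this way, 0 of 9 against 0.166% of all genes, and the library FeNonAD8 was the highest FeNonAD library for 7 of the 9 genes.

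**Figure D3:**
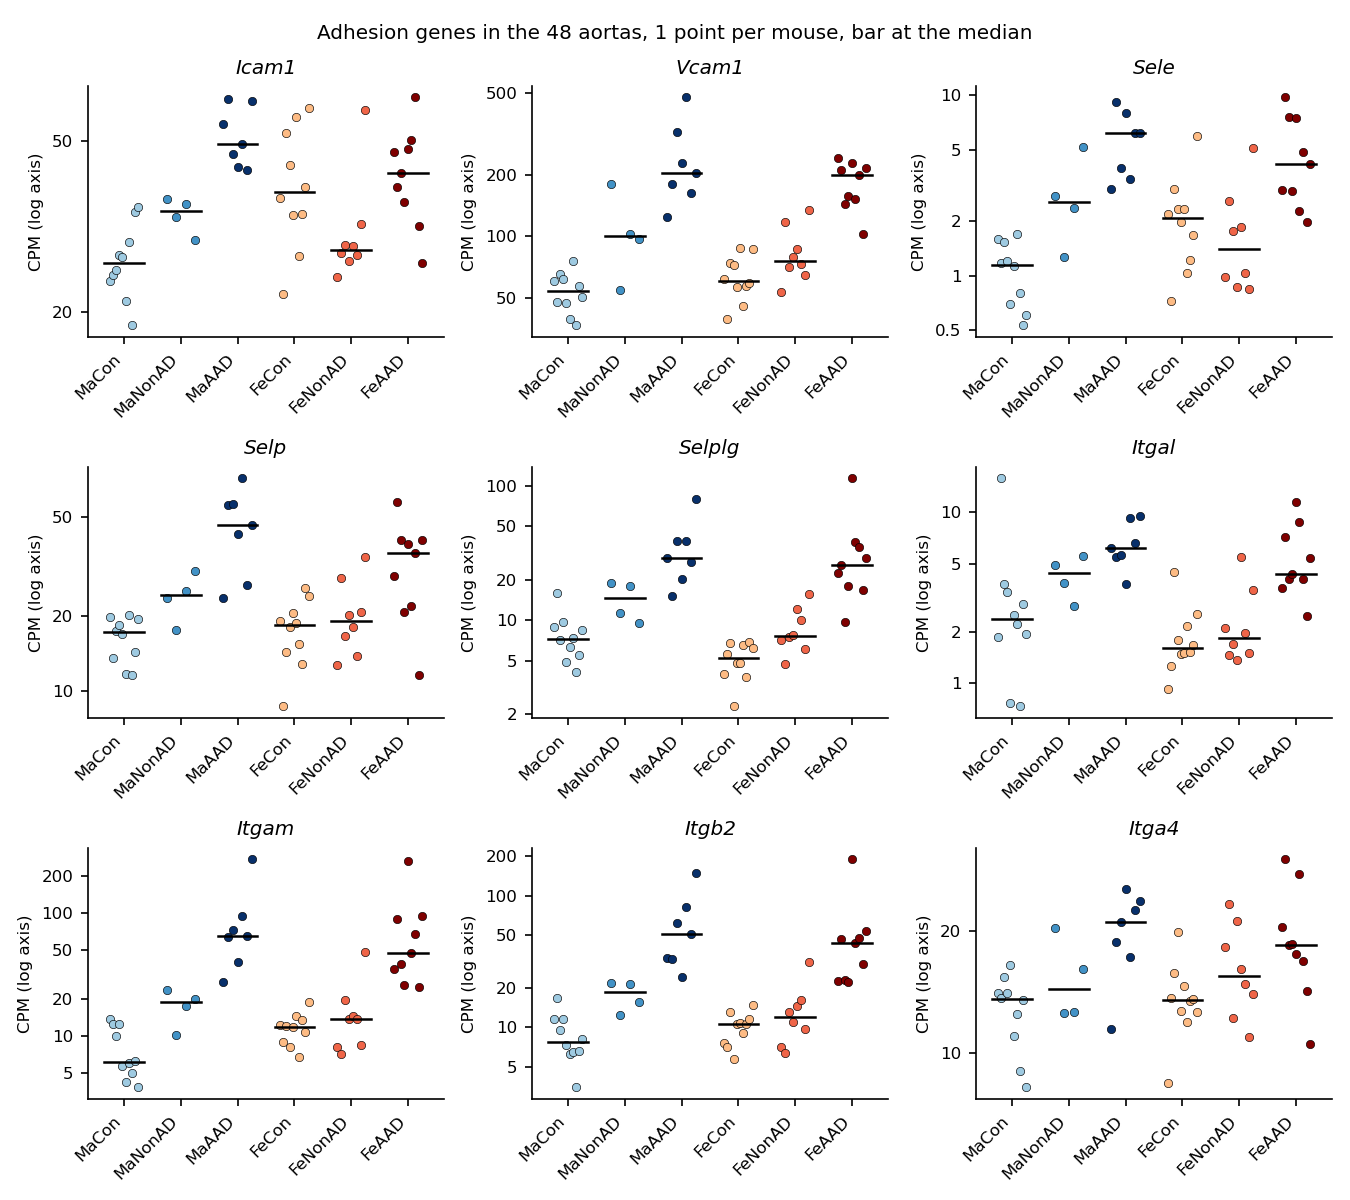
CPM (log axes) of each of the 9 genes in every aorta by group, 1 point per mouse with a bar at the median. In the Icam1 panel the lowest MaAAD library (42.8 CPM) lies above the highest MaCon library (35.1 CPM), while the FeCon libraries spread from 21.9 to 59.5 CPM.

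Among the vessel-side genes the sequence before the start of transcription was available for Icam1, Sele and Selp, but not analysed here for Vcam1. Their 250 bases upstream are shown because these genes rose in male AAD and because Icam1 and Sele are the members that differed between the sexes in controls. The sequences are from RefSeq on GRCm38.p6, 5′ to 3′ on the strand of the gene, whereas the deposited counts were made on GRCm39. Capitals mark matches, on either strand, to GGNNNTTCC (kappaB-like), TGANTCA (AP-1-like), GAGGAA (PU.1-like) and TATAAA, the letters of a TATA box. Icam1 lies at chr9:21015690-21015939 (+), Sele at chr1:164047984-164048233 (+) and Selp at chr1:164115014-164115263 (+).
Icam1: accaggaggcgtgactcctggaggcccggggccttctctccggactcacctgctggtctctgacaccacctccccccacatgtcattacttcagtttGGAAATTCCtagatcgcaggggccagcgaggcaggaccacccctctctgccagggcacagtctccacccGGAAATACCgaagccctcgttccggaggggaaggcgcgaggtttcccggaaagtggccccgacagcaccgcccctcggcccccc
Sele: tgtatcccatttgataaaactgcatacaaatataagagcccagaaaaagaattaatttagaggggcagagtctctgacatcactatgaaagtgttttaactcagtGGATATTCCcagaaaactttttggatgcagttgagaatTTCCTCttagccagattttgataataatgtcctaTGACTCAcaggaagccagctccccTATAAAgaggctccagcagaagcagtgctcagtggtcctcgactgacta
Selp: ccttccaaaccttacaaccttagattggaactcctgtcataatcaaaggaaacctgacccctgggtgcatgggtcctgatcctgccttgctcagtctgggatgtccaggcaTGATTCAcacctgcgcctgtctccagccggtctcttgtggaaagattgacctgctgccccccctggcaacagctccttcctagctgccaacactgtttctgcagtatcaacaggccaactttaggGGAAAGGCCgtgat
The kappaB-like letters occurred at 153 to 145 and at 84 to 76 bases before the start of Icam1, at 145 to 137 bases before Sele and at 14 to 6 bases before Selp. The first of these matched the pattern on both strands. Among 32851 promoter windows of 300 bases, which reach 50 bases past the start and so beyond the stretch shown, 18.5% held a kappaB-like match, 7.81% an AP-1-like match, 28.3% a PU.1-like match and 13.6% the TATA letters. AP-1-like letters stood at 73 to 67 bases before Sele and at 139 to 133 bases before Selp, and TATAAA at 49 to 44 bases before Sele. In Icam1 TATAAA stood after the start, outside the stretch shown. A match is a run of letters and not a measured binding site.

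Icam1, the ligand of LFA-1 and Mac-1, rose in male AAD and was the only member called for a difference in response between the sexes. Its lowest, median and highest levels were 18.6, 25.9 and 35.1 CPM in MaCon and 42.8, 49.1 and 62.5 CPM in MaAAD. The 4 MaNonAD libraries held 36.5, 33.2, 35.6 and 29.4 CPM, and 2 of them were above every MaCon library. FeCon ran from 21.9 through a median of 37.9 to 59.5 CPM, FeNonAD from 24.1 through 27.9 to 58.8 CPM and FeAAD from 25.9 through 42.1 to 63.0 CPM. The 3 female groups overlapped over almost their whole ranges, and 7 of 8 FeNonAD libraries stood at or below 32.0 CPM. The means were 26.5 ± 5.24 CPM (SD) over the 10 MaCon and 51.5 ± 8.24 CPM over the 7 MaAAD libraries, a log2 fold change of 0.96 with an SE of 0.17 (adjusted p = 1.59e-05). In FeAAD vs FeCon it was 0.07 with a 95% interval from -0.24 to 0.39 (adjusted p = 0.738), an interval that leaves out the male value.

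The difference between these male and female changes of Icam1 was 0.89 on the log2 scale (SE 0.24, adjusted p = 0.0425), and it was 1 of the 9 members called for this interaction, where 1.34% of all genes were called. It came with unequal controls. Icam1 was lower in MaCon than in FeCon, at -0.61 on the same scale (SE 0.16, adjusted p = 0.00746). MaAAD and FeAAD differed by 0.28 (95% interval from -0.07 to 0.62, adjusted p = 1.000), and MaNonAD and FeNonAD by 0.09 (95% interval from -0.33 to 0.51). The interaction did not keep an adjusted p under 0.05 in each fit without 1 library: it was 0.81 (adjusted p = 0.0789) without FeCon10, which had the highest Icam1 level and the most heart muscle marker RNA in its group, 0.82 (adjusted p = 0.0641) without FeAAD9, which had the lowest Icam1 level of FeAAD at 25.9 CPM and the lowest endothelial marker sum, 0.84 (adjusted p = 0.0607) without MaAAD7 and 0.87 (adjusted p = 0.0555) without MaCon2. DESeq2 gave 0.90 (adjusted p = 0.0170). The difference between the controls stayed under 0.05 without FeCon10, at -0.53 (adjusted p = 0.0246). MaAAD7 likewise had the most heart muscle marker RNA of its group, and the part of heart muscle or endothelial RNA in either value was not tested.

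Vcam1, the ligand of VLA-4, was the only member that rose in lesion-free BAPN-treated males. MaCon ran from 36.8 through a median of 54 to 75.6 CPM and MaAAD from 124 through 203 to 477 CPM, so that the groups did not overlap. The 4 MaNonAD libraries held 181, 54.6, 103 and 97.4 CPM, 3 of them above every MaCon library. Vcam1 rose between MaNonAD and MaCon, with a log2 fold change of 1.01, an SE of 0.25 and an adjusted p of 0.0460, a call that was lost when any of 4 single libraries was left out. Without MaNonAD1, the library at 181 CPM, the fold change was 0.64 (adjusted p = 0.699). MaNonAD1 had a smooth muscle marker sum of 18373 CPM, where the other 3 MaNonAD libraries held 30678 to 34672 CPM, and a pan-leukocyte sum of 192 CPM against at most 141 CPM. Without MaNonAD3 it was 1.05 (adjusted p = 0.0880), without MaNonAD4 1.06 (adjusted p = 0.0517) and without MaCon2 0.99 (adjusted p = 0.0555). Of 4 B cell markers 3 rose in the same comparison, their summed level running from 0.802 to 5.30 CPM in MaCon and from 6.62 to 17.9 CPM in MaNonAD. The part of these cell types in the Vcam1 value was not tested.

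In MaAAD vs MaCon, Vcam1 rose 4.48-fold, or by 2.16 as log2 with an SE of 0.22 (adjusted p = 1.33e-09). In females the levels ran from 39.4 through 60.5 to 88.3 CPM in FeCon, from 53.4 through 76.2 to 135 CPM in FeNonAD and from 102 through 198 to 241 CPM in FeAAD. FeNonAD lay between, and 8 of 9 FeAAD libraries were above every FeNonAD library. The log2 fold change was 1.51 (SE 0.21, adjusted p = 1.12e-07) in FeAAD vs FeCon and 1.11 (SE 0.22, adjusted p = 0.000331) in FeAAD vs FeNonAD. MaAAD vs MaNonAD gave 1.16 (SE 0.29, adjusted p = 0.0502). The male and female responses to AAD differed by 0.65 (95% interval from 0.06 to 1.24, adjusted p = 0.280), which did not pass the test.

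Sele, the endothelial selectin that appears on activated endothelium, had few counts, from 8 to 26 per library in MaCon. MaCon ran from 0.533 through 1.15 to 1.71 CPM and MaAAD from 3.01 through 6.14 to 9.18 CPM, without overlap. The 4 MaNonAD libraries held 2.75, 1.27, 2.37 and 5.14 CPM, and 3 of them were above every MaCon library. Sele rose 5.13-fold in MaAAD vs MaCon (log2 fold change 2.36, SE 0.37, adjusted p = 2.40e-06). For MaNonAD vs MaCon the log2 fold change was 1.38 (SE 0.44, adjusted p = 0.145), under 0.05 in a fit of these groups alone (1.39, adjusted p = 0.0477). The female values were lowest 0.729, median 2.10 and highest 5.97 CPM in FeCon, 0.851, 1.40 and 5.10 CPM in FeNonAD and 2.00, 4.17 and 9.71 CPM in FeAAD. FeCon10 held the highest FeCon value and FeNonAD8 the highest FeNonAD value, and 3 of 9 FeAAD libraries were above every FeCon library. Sele rose by 1.11 (SE 0.34, adjusted p = 0.00724) in FeAAD vs FeCon and by 1.38 (SE 0.37, adjusted p = 0.00684) in FeAAD vs FeNonAD. Like Icam1 it was lower in MaCon than in FeCon, at a log2 fold change of -1.03 with an SE of 0.35 (adjusted p = 0.0425), and these 2 of 9 members compare with 7.90% of all genes that were lower in MaCon. Without FeCon10 this value was -0.74 (adjusted p = 0.161), and without MaCon2 it was -1.04 (adjusted p = 0.0517). A gene model of RefSeq, Gm51665, overlaps Sele.

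Selp, stored in endothelial cells and platelets and brought to the surface on activation, averaged 16.4 ± 3.32 CPM (SD) over the 10 MaCon libraries and 46.2 ± 17.0 CPM over the 7 MaAAD libraries. MaCon ran from 11.6 through 17.2 to 20.3 CPM and MaAAD from 23.7 through 46.6 to 71.5 CPM, and the ranges did not meet. The 4 MaNonAD libraries held 23.5, 17.5, 25.2 and 30.3 CPM, 3 of them above MaCon. In females the levels were 8.68, 18.5 and 26.0 CPM (lowest, median, highest) in FeCon, 12.7, 19.1 and 34.4 CPM in FeNonAD and 11.6, 35.8 and 57.4 CPM in FeAAD. Selp rose by 1.50 (log2, SE 0.23, adjusted p = 1.35e-06) in MaAAD vs MaCon, by 0.89 (SE 0.22, adjusted p = 0.000823) in FeAAD vs FeCon and by 0.68 (SE 0.23, adjusted p = 0.0340) in FeAAD vs FeNonAD. Platelet markers moved with the groups: their summed level had a median of 18.3 CPM in MaCon and 50.2 CPM in MaAAD, and of 16.8 CPM in FeCon and 45.0 CPM in FeAAD. Of these 4 markers 2 rose in MaAAD and 4 in FeAAD, and the part of platelets in the Selp values was not tested. Selp overlaps the gene model Gm16548 in the RefSeq annotation.

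Selplg, the selectin ligand of leukocytes, had the highest fold change of the 9 genes in FeAAD vs FeCon, within the error of that of Itgam. Its range was 2.28 to 6.89 CPM in FeCon (median 5.23) and 9.65 to 113 CPM in FeAAD (median 25.7), without overlap. FeNonAD ran from 4.73 through 7.62 to 15.6 CPM, and 6 of its 8 libraries were above every FeCon library. The log2 fold change was 2.73 (SE 0.33, adjusted p = 7.07e-09) in FeAAD vs FeCon and 1.95 (SE 0.34, adjusted p = 0.000102) in FeAAD vs FeNonAD, and 0.78 in FeNonAD vs FeCon (adjusted p = 0.104). In males Selplg ran from 4.14 through 7.19 to 15.8 CPM in MaCon and from 15.2 through 28.8 to 79.0 CPM in MaAAD. The groups touched only at MaCon2, which had the most T cell marker RNA of all libraries. The MaNonAD libraries held 18.9, 11.2, 17.9 and 9.55 CPM. Selplg rose by 2.18 (SE 0.33, adjusted p = 1.08e-06) in MaAAD vs MaCon, while MaAAD vs MaNonAD gave 1.30 (adjusted p = 0.0886).

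Itgam, the alpha chain of Mac-1 on neutrophils, monocytes and macrophages, had the highest fold change in MaAAD vs MaCon. Its upstream 250 bases are shown because it was the only member that rose in both AAD vs NonAD comparisons. They lie at chr7:128062390-128062639 (+) of GRCm38.p6 (RefSeq), with capitals marking GAGGAA, letters found in binding sites of the myeloid factor PU.1, on either strand.
Itgam: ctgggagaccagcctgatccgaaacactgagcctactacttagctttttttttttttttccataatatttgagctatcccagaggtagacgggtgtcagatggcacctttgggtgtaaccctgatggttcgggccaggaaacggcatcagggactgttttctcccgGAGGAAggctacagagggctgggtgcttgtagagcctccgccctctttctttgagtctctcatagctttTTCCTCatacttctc
Matches stood at 84 to 79 and at 15 to 10 bases before the start, with 1 more after the start, outside the stretch shown, and no kappaB-like, AP-1-like or TATA letters were found in the 300-base window. The window of Itga4 held none of the 4 motifs, and promoters of Selplg, Itgal and Itgb2 were not analysed here. On chromosome 7 Itgam lies next to Itgax, the gene of a related alpha chain.

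The level of Itgam ran from 3.83 through a median of 6.16 to 13.8 CPM in MaCon and from 27.7 through 64.8 to 275 CPM in MaAAD. The MaNonAD libraries held 23.8, 10.2, 17.5 and 20.1 CPM, all below the lowest MaAAD library and 3 of 4 above the highest MaCon library. Itgam rose 11.4-fold in MaAAD vs MaCon (log2 fold change 3.51, SE 0.43, adjusted p = 2.27e-08), and by 2.92 (adjusted p = 3.35e-07) without MaAAD7. It rose by 2.35 in MaAAD vs MaNonAD (SE 0.58, adjusted p = 0.0497), a call near the threshold, and without MaAAD7, the library at 275 CPM, this value was 1.76 (adjusted p = 0.173). The adjusted p was 0.288, 0.121 and 0.161 without MaNonAD2, MaNonAD3 and MaNonAD4. In females the levels were 6.77, 11.9 and 19.1 CPM in FeCon, 7.19, 13.9 and 48.5 CPM in FeNonAD and 25.3, 48.0 and 268 CPM in FeAAD (lowest, median, highest). FeAAD did not overlap FeCon, and only FeNonAD8 reached into the FeAAD range. The log2 fold change was 2.70 (SE 0.40, adjusted p = 4.98e-07) in FeAAD vs FeCon and 2.20 (SE 0.42, adjusted p = 0.000243) in FeAAD vs FeNonAD. The highest libraries, MaAAD7 and FeAAD5, were also highest for the 5 neutrophil markers, at 235 and 878 CPM, and for the 5 macrophage markers, at 1273 CPM (next in MaAAD 668) and 1297 CPM (next in FeAAD 650). The part of either cell type in the Itgam values was not tested.

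Itgb2, the beta chain shared by LFA-1 and Mac-1, rose in AAD in both sexes. MaCon ran from 3.48 through 7.69 to 16.7 CPM, MaAAD from 24.2 through 51.0 to 150 CPM, and the MaNonAD libraries held 21.5, 12.4, 21.4 and 15.5 CPM. Every MaAAD library was above every MaNonAD library. The female levels were 5.67, 10.6 and 14.6 CPM in FeCon, 6.39, 11.9 and 31.1 CPM in FeNonAD and 22.1, 43.9 and 189 CPM in FeAAD. Itgb2 rose by 2.83 (log2, SE 0.36, adjusted p = 6.98e-08) in MaAAD vs MaCon, by 2.40 (SE 0.35, adjusted p = 3.13e-07) in FeAAD vs FeCon and by 1.97 (SE 0.37, adjusted p = 0.000170) in FeAAD vs FeNonAD. For MaAAD vs MaNonAD the value was 1.82 (SE 0.49, adjusted p = 0.0507). DESeq2 called it there (adjusted p = 0.00691), as did edgeR without MaNonAD1 (1.92, adjusted p = 0.0425) and with DESeq2 size factors (adjusted p = 0.0492). It was 1.43 (adjusted p = 0.190) without MaAAD7, and the adjusted p was 0.288, 0.121 and 0.161 without MaNonAD2, MaNonAD3 and MaNonAD4.

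Itgal, the alpha chain of LFA-1, which T cells carry at high level, passed the test in female but not in male AAD. In MaCon it ran from 0.735 through 2.38 to 15.8 CPM, and the highest value was that of MaCon2, where the next library held 3.81 CPM. MaAAD ran from 3.81 through 6.21 to 9.50 CPM, and the MaNonAD libraries held 4.91, 3.88, 2.83 and 5.54 CPM. The log2 fold change in MaAAD vs MaCon was 0.88 (SE 0.39, adjusted p = 0.0730). Without MaCon2 it was 1.55 (adjusted p = 0.000143), so this 1 library decided the call. FeCon ran from 0.925 through 1.60 to 4.50 CPM, FeNonAD from 1.36 through 1.83 to 5.51 CPM and FeAAD from 2.48 through 4.35 to 11.5 CPM. These groups overlapped, and 4 of 9 FeAAD libraries were above every FeCon library. Itgal rose by 1.55 (SE 0.38, adjusted p = 0.000794) in FeAAD vs FeCon and by 1.25 (SE 0.40, adjusted p = 0.0234) in FeAAD vs FeNonAD, the latter 1.06 (adjusted p = 0.0817) without FeAAD5. Summed T cell markers had medians of 3.83 CPM in FeCon and 5.56 CPM in FeAAD, and 1 of the 5 rose in FeAAD. B cells also carry LFA-1, and of their 4 markers 4 rose in FeAAD vs FeCon, 3 in FeAAD vs FeNonAD and 2 in MaAAD vs MaCon, with medians of their sum at 1.53 CPM in FeCon and 5.39 CPM in FeAAD. The part of either lymphocyte type in the Itgal values was not tested.

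Itga4, the alpha chain of VLA-4, changed least of the members that rose in both sexes. It ran from 8.20 through 13.6 to 16.5 CPM in MaCon and from 11.5 through 21.1 to 25.4 CPM in MaAAD, where 6 of 7 libraries were above every MaCon library. The MaNonAD libraries held 20.4, 12.5, 12.6 and 16.1 CPM. Female levels were 8.40, 13.5 and 19.9 CPM in FeCon, 10.9, 15.5 and 23.4 CPM in FeNonAD and 10.5, 18.5 and 30.1 CPM in FeAAD, with wide overlap. Itga4 rose by 0.65 (log2, SE 0.17, adjusted p = 0.00292) in MaAAD vs MaCon and by 0.50 (SE 0.16, adjusted p = 0.0109) in FeAAD vs FeCon. Its partner Itgb1, made by nearly all cells of the wall, had a log2 fold change of -0.03 in MaAAD vs MaCon (95% interval from -0.30 to 0.23) and of -0.14 in FeAAD vs FeCon (95% interval from -0.38 to 0.11). Itga4 overlaps the gene Cerkl in the RefSeq annotation, and whether counting used the strand of the reads is not given in the sources used here.

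Between the sexes no further member was called. In MaCon vs FeCon the members with an unadjusted p under 0.05 were 3, Icam1, Sele and Itgal (0.89 higher in MaCon, 95% interval from 0.16 to 1.62, adjusted p = 0.0979, with MaCon2 at 15.8 CPM among the MaCon libraries), against 29.1% of all genes. For the sex difference in AAD vs Con they were 3 as well, Icam1, Vcam1 and Sele, against 15.4% of all genes. DESeq2 called 1 member there by adjusted p, Icam1, and 129 DEGs over all genes, where edgeR had 75. There Sele was at 1.25, with a 95% interval from 0.26 to 2.24 (adjusted p = 0.205). Between MaNonAD and FeNonAD 0 of 9 were called, against 0.0624% of all genes, with 0 at an unadjusted p under 0.05 in edgeR, against 6.47% of all genes, and 0 by DESeq2. Between MaAAD and FeAAD 0 of 9 were called, against 0.0901% of all genes, where 1 member (Selp, 0.49 higher in MaAAD, adjusted p = 1.000) had an unadjusted p under 0.05, against 2.22% of all genes, and DESeq2 called 0. For the sex difference in the NonAD response 0 of 9 were called, against 0.416% of all genes. There Icam1 (0.70, 95% interval from 0.19 to 1.22) and Sele (1.65, 95% interval from 0.52 to 2.77) were the 2 members with an unadjusted p under 0.05, against 12.1% of all genes, and DESeq2 called 0. The sex difference in AAD vs NonAD was called for 0 of 9 members and 0% of all genes, with 0 members at an unadjusted p under 0.05, against 1.04% of all genes, and 0 by DESeq2. Over all genes DESeq2 called 7 DEGs between MaNonAD and FeNonAD and 10 between MaAAD and FeAAD. For the sex difference it called 94 in the NonAD response and 1 in AAD vs NonAD.

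Levels can be compared between genes per kilobase of transcript. In MaCon the order of the medians was Vcam1 at 13.2 CPM per kilobase, Icam1 at 10.2, Selp at 5.00, Selplg at 3.11, Itgb2 at 2.59, Itga4 at 1.39, Itgam at 1.32, Itgal at 0.456 and Sele at 0.396. Of neighbours in this order, only Icam1 and Selp had ranges that did not overlap. In MaAAD the order of the medians was Vcam1 (49.7 CPM per kilobase), Icam1 (19.3), Itgb2 (17.2), Itgam (13.8), Selp (13.5), Selplg (12.4), Itga4 (2.16), Sele (2.11) and Itgal (1.19). Here Vcam1 stood clear of Icam1, and Selplg clear of Itga4. FeCon began with Icam1 at 14.9 and Vcam1 at 14.8 CPM per kilobase, which overlapped, and FeAAD with Vcam1 at 48.6 and Icam1 at 16.6, which did not. Itgal was the lowest in all 3 female groups, and Itgb2 took the third place in both AAD groups.

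Ratios of these per-length levels between members were chosen after the values were seen and are given without a test. Vcam1 per Icam1 had a median of 1.22 in MaCon (0.897 to 1.63), 1.92 in MaNonAD (1.02 to 3.08) and 2.37 in MaAAD (1.41 to 6.03). In females it was 1.04 in FeCon (0.884 to 1.11), 1.61 in FeNonAD (1.26 to 2.67) and 2.71 in FeAAD (1.87 to 5.17). The FeCon range was the narrowest of the 6 groups, and no FeNonAD or FeAAD library fell into it. Itgam per Itgal had a median of 2.98 in MaCon (0.893 to 8.31, the lowest being MaCon2) and 11.7 in MaAAD (4.97 to 32.3), and of 8.12 in FeCon (3.00 to 14.8) and 11.4 in FeAAD (6.11 to 26.0). Itgal per Itgb2 had a median of 0.183 in MaCon, 0.0733 in MaAAD, 0.0911 in FeCon and 0.0864 in FeAAD. Itgam per Itgb2 stayed between medians of 0.602 and 0.897 in all 6 groups. Selp per Sele ran from a median of 11.4 in MaCon to 6.38 in MaAAD and from 8.05 in FeCon to 5.98 in FeAAD, with overlapping ranges.

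**Figure D4:**
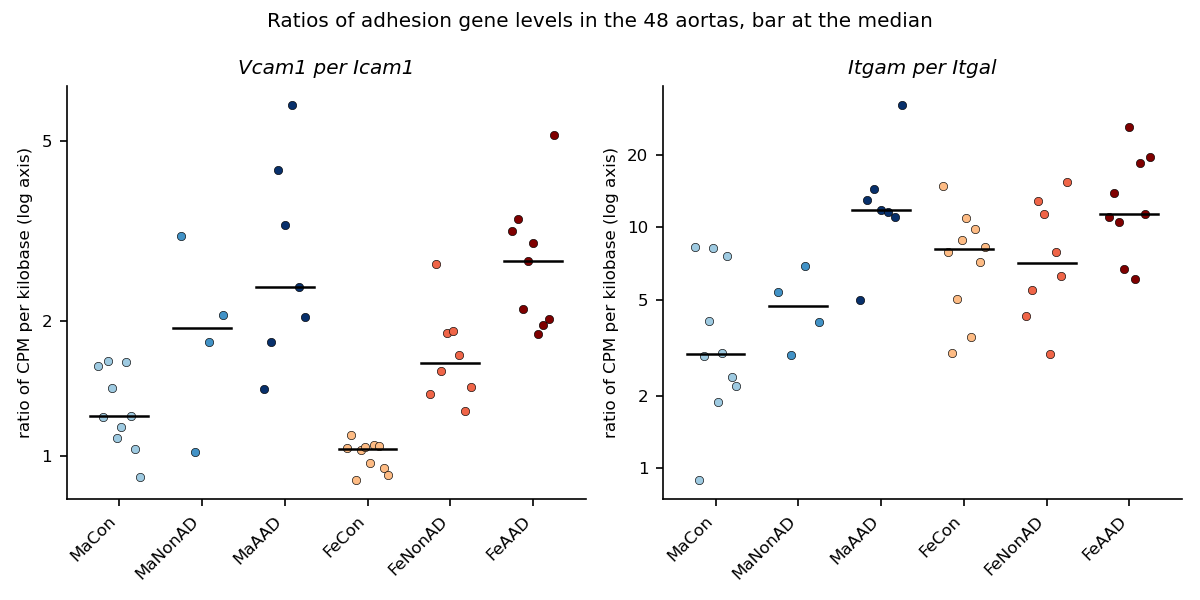
Ratio of CPM per kilobase (log axes) of Vcam1 to Icam1 and of Itgam to Itgal in each aorta by group, with a bar at the median. The 10 FeCon libraries lie between 0.884 and 1.11 for Vcam1 per Icam1, and MaCon2 is the lowest point for Itgam per Itgal at 0.893.

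To see how the genes moved against the cells they are usually found in, the log2 level of each vessel-side gene was taken relative to the mean log2 level of the 7 endothelial markers, and that of each leukocyte-side gene relative to the 5 pan-leukocyte markers. Icam1 and Vcam1 are also made by smooth muscle cells, fibroblasts and macrophages, so for them the endothelial list is only a scale. The part of these cells in the relative levels was not tested. Differences were tested by two-sided exact permutation of libraries, adjusted over 54 tests. In MaAAD vs MaCon all 4 vessel-side genes rose relative to the endothelial list, Vcam1 by 1.86 (adjusted p = 0.00214), Sele by 1.71 (adjusted p = 0.00214), Selp by 1.21 (adjusted p = 0.00833) and Icam1 by 0.77 (adjusted p = 0.00617). In FeAAD vs FeCon Vcam1 rose by 1.54 (adjusted p = 0.00117) and Sele by 0.99 (adjusted p = 0.0492), while Selp was at 0.84 (adjusted p = 0.0507) and Icam1 at 0.13 (adjusted p = 0.540). With a pseudocount of 0.1 Selp passed the test there, at 0.85 (adjusted p = 0.0479). The results for Icam1, Selp and Sele depended on the endothelial gene used, since Pecam1 fell in FeAAD (log2 fold change -0.70, SE 0.19, adjusted p = 0.00198) and Cdh5 rose in both sexes. Relative to Cdh5 alone Icam1 was at 0.39 in males (adjusted p = 0.206), and relative to Pecam1 alone it rose by 0.88 in females (adjusted p = 0.0101). Relative to Cdh5 alone Selp was at 0.84 in males (adjusted p = 0.0790) and 0.45 in females (adjusted p = 0.267), and relative to Pecam1 alone it rose by 1.59 in females (adjusted p = 0.000835). Sele was at 0.61 in females relative to Cdh5 alone (adjusted p = 0.208), at 0.86 (adjusted p = 0.0771) without FeAAD5 and at 0.90 (adjusted p = 0.0758) without FeAAD9, while in males it rose by 1.34 relative to Cdh5 alone (adjusted p = 0.00555). Vcam1 rose relative to Cdh5 and relative to Pecam1 in both sexes, by 1.15 to 2.29.

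On the leukocyte side, Itga4 fell relative to the pan-leukocyte list by 1.88 in MaAAD vs MaCon (adjusted p = 0.00317) and by 1.87 in FeAAD vs FeCon (adjusted p = 0.00117). Itgal fell relative to it by 1.33 (adjusted p = 0.00185) in males and by 1.02 (adjusted p = 0.00214) in females. Both falls held in every alternative tried, among them Ptprc alone as the reference and the fits without MaCon2, MaAAD7, FeCon10, FeAAD5 or FeAAD9, where they ranged from -2.02 to -1.60 for Itga4 and from -1.33 to -0.89 for Itgal. They are falls relative to the list only. The log2 fold changes themselves, male then female, were 0.65 and 0.50 for Itga4 and 0.88 and 1.55 for Itgal. The median of the 5 list markers was 2.41 and 2.58. The part of leukocytes in the Itga4 values was not tested. Itgam and Itgb2 did not pass the test in AAD vs Con, with Itgam at 0.70 in males (adjusted p = 0.0616) and at -0.04 in females (adjusted p = 0.884), and Itgb2 at 0.12 (adjusted p = 0.445) and -0.30 (adjusted p = 0.0616). Relative to Ptprc alone Itgam rose by 0.95 in males (adjusted p = 0.0163), and with a pseudocount of 0.1 Itgb2 fell by 0.34 in females (adjusted p = 0.0479). Selplg fell by 0.47 in males (adjusted p = 0.00416), but was at -0.22 (adjusted p = 0.442) relative to Ptprc alone, and at 0.01 in females (adjusted p = 0.983). Between FeNonAD and FeCon the relative level of Vcam1 rose by 0.50 (adjusted p = 0.0492) and that of Itgb2 fell by 0.29 (adjusted p = 0.0330). The Vcam1 value was 0.33 relative to Cdh5 alone (adjusted p = 0.208) and 0.34 without FeNonAD8 (adjusted p = 0.0681). Without that library the relative level of Icam1 fell by 0.42 (adjusted p = 0.0292), against -0.23 (adjusted p = 0.370) with it. Between FeAAD and FeNonAD that of Vcam1 rose by 1.04 (adjusted p = 0.0178; 0.82 and adjusted p = 0.0525 relative to Cdh5 alone) and that of Itga4 fell by 1.52 (adjusted p = 0.0222). Between MaAAD and MaNonAD that of Itgal fell by 0.90 (adjusted p = 0.0468), a call lost with a pseudocount of 0.1 (-0.88, adjusted p = 0.0595) and without MaAAD7 or any 1 of the 4 MaNonAD libraries (adjusted p from 0.0529 to 0.0900). Between MaNonAD and MaCon 0 of 9 passed the exact permutation test, where 4 libraries stood against 10 and Sele (0.79, adjusted p = 0.0704), Vcam1 (0.69, adjusted p = 0.104) and Itga4 (-0.78, adjusted p = 0.104) had the lowest unadjusted p, at or under 0.05.

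**Figure D5:**
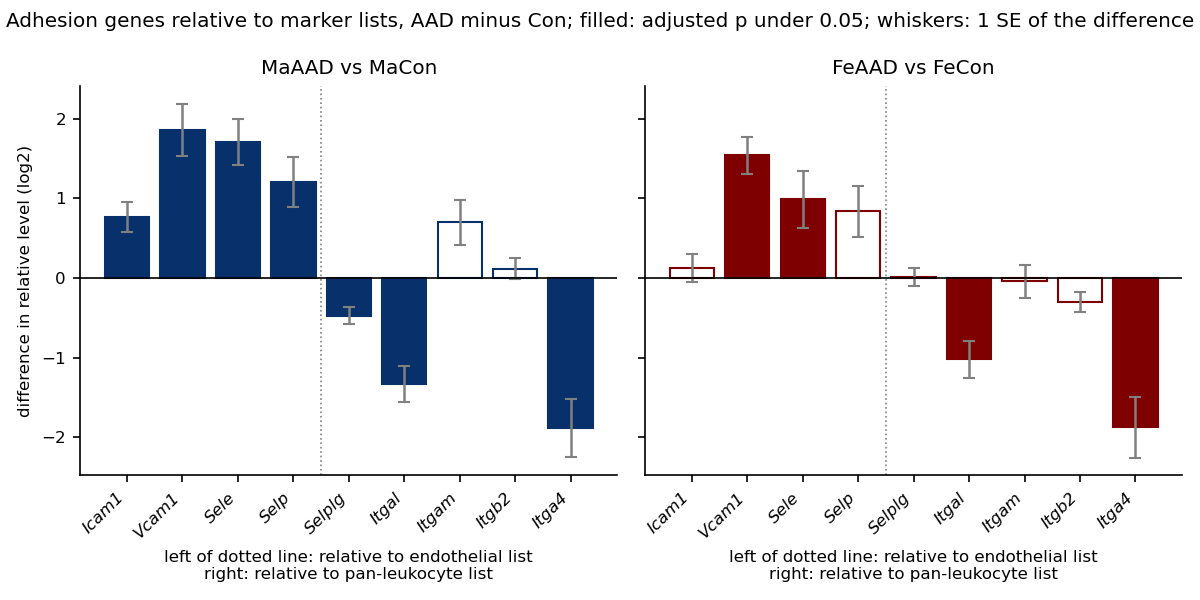
Difference between AAD and Con, on the log2 scale, in the level of each gene relative to the endothelial list (4 genes on the left) or the pan-leukocyte list (5 genes on the right), with whiskers of 1 SE of the difference. Filled bars had an adjusted p under 0.05 in exact permutation tests, 7 in males and 4 in females, and Itga4 was lowest at -1.88 and -1.87.

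Within the AAD groups, 6 pairs of partners were correlated on log2(CPM + 0.5), giving 12 tests per coefficient by exact permutation. The labels name no batch within which these could be repeated. Itgam and Itgb2 went together in MaAAD (n = 7), with Pearson's r = 0.91 (exact p = 0.00754, adjusted p = 0.0302) and Spearman's rho = 0.89 (exact p = 0.0123, adjusted p = 0.0492). In FeAAD (n = 9) r was 0.94 (exact p = 0.00139, adjusted p = 0.0167) and rho 0.88 (exact p = 0.00308, adjusted p = 0.0369). Without the 2 libraries farthest from the median of Itgam, r was 0.93 and 0.80. Itgal and Itgb2 had r = 0.88 in MaAAD (exact p = 0.00595, adjusted p = 0.0302; rho = 0.89, exact p = 0.0123, adjusted p = 0.0492), and r was 0.71 without the 2 farthest libraries. In FeAAD their r was 0.77 (exact p = 0.0178, adjusted p = 0.0534) and rho 0.53 (exact p = 0.148, adjusted p = 0.443).

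None of the 8 correlations between a vessel-side ligand and its leukocyte receptor passed the test. The Pearson's r of Icam1 with Itgal was 0.39 in MaAAD and 0.24 in FeAAD, that of Vcam1 with Itga4 0.27 and 0.09, that of Selp with Selplg 0.13 and 0.23, and that of Sele with Selplg -0.42 and 0.18 (exact permutation, adjusted p from 0.751 to 0.812). Their Spearman's rho ranged from -0.54 to 0.32 (adjusted p from 0.566 to 0.810). When both genes were taken relative to the pan-leukocyte list, 0 of the 12 pairs had a Pearson's r with an adjusted p under 0.05 by exact permutation. At an unadjusted exact p under 0.05 these were Icam1 with Itgal in both groups (0.84 and 0.72) and Vcam1 with Itga4 in FeAAD (0.85), whose 2 values share the same subtracted list.

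The genes whose levels went most closely with each member over the 48 libraries, after the mean of each group was removed, are given as a description. Among 13701 genes, Itgb2 and Selplg were closest to Laptm5 (r = 0.94 and 0.92), a lysosomal protein of blood cells that is also on the pan-leukocyte list. Itgam was closest to Plek (r = 0.91), the pleckstrin gene of platelets and leukocytes, and Itgal to Traf3ip3 (r = 0.87). Vcam1 and Selp were both closest to Slco2a1 (r = 0.79 and 0.76), the prostaglandin transporter. Icam1 was closest to Cpne8 (r = 0.75), then to Lbp (r = 0.71) and Serpina3n (r = 0.69), the latter 2 being secreted acute-phase proteins. Sele was closest to Prg4 (r = 0.67), the lubricin gene, and Itga4 to Eif5a2 (r = 0.74). Among the members themselves the closest pairs were Itgam with Itgb2 (r = 0.89), Selplg with Itgb2 (r = 0.88), and Selplg with Itgam and Vcam1 with Selp (both r = 0.71). Itga4 had r = 0.00 with Selplg, 0.02 with Itgb2, 0.13 with Itgam and 0.21 with Itgal.

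Around the 9 genes, 55 further genes of leukocyte adhesion were listed by textbook role, of which 51 were tested. In MaAAD vs MaCon 24 rose and 8 fell, where 18.9% of all genes rose and 16.1% fell, with 14 DEGs that rose and 2 that fell, against 9.18% and 2.18% of all genes. In FeAAD vs FeCon 23 rose and 6 fell, where 23.8% and 20.6% of all genes did, with 14 and 1 DEGs, against 9.94% and 2.78%. Their median log2 fold change was 0.44 in males and 0.30 in females.

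Of 8 other leukocyte adhesion receptor chains tested, 4 rose and 2 fell in MaAAD and 5 rose in FeAAD, and those that rose were all DEGs. Itgax, the CD11c chain, averaged 2.33 ± 0.884 CPM (SD) in MaCon, 17.9 ± 8.67 CPM in MaAAD, 1.91 ± 0.958 CPM in FeCon and 15.1 ± 12.0 CPM in FeAAD. It rose by 2.93 in males (SE 0.37, adjusted p = 5.21e-08) and by 2.98 in females (SE 0.37, adjusted p = 1.11e-08). Itgb7, the beta chain that can replace Itgb1 beside Itga4, rose by 2.17 in males and 2.30 in females. Itgb3, a chain of platelets and smooth muscle, fell by 0.53 in males (adjusted p = 0.0291) and was at -0.34 in females (adjusted p = 0.123).

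Of the 10 other vessel or platelet ligands and counter-receptors tested, Thy1, Cd44 and Spn were DEGs with a higher level in both sexes. Spn, the leukocyte sialomucin CD43, rose by 1.85 (SE 0.41, adjusted p = 0.000345) in MaAAD and by 2.38 (SE 0.40, adjusted p = 5.28e-06) in FeAAD. Icam2, the constitutive endothelial ligand of LFA-1, was at -0.21 (95% interval from -0.57 to 0.16) and -0.27 (95% interval from -0.62 to 0.07). Of the 12 junction and transmigration genes 5 rose and 3 fell in males and 4 rose and 4 fell in females, with Sirpa, a myeloid receptor for CD47, at 1.47 (SE 0.19, adjusted p = 9.28e-08) and 1.13 (SE 0.18, adjusted p = 2.40e-06). Cd99, which leukocytes use to pass endothelial junctions, fell by 1.05 (adjusted p = 0.0366) and 1.11 (adjusted p = 0.0165), at 1.44 CPM or less on average in each group compared.

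Of the 10 enzymes that build selectin ligands, 4 rose and 1 fell in males and 5 rose in females, where 18.9% and 23.8% of all genes rose. Fut4, a fucosyltransferase of leukocytes, was the 1 DEG in each sex, where 9.18% and 9.94% of all genes were DEGs with a higher level. It was at 1.43 (SE 0.25, adjusted p = 9.27e-06) and 1.16 (SE 0.23, adjusted p = 6.75e-05), and Chst4, a sulfotransferase, was at 0.12 (adjusted p = 0.835) and -0.57 (adjusted p = 0.187). Of 11 genes that turn on integrins from inside the leukocyte, 7 rose and 2 fell in males and 6 rose and 2 fell in females. Fermt3, Vav1, Cytip and Fyb were DEGs with a higher level in both sexes, and Cytip, a regulator of integrin adhesion in lymphoid and dendritic cells, rose by 2.57 (SE 0.44, adjusted p = 8.09e-06) and 2.56 (SE 0.42, adjusted p = 3.28e-06). Rasgrp2, an activator of Rap1 in platelets and leukocytes, averaged 83.9 ± 10.1 CPM (SD) in MaCon and 38.9 ± 4.72 CPM in MaAAD. It fell by 1.11 in males (SE 0.15, adjusted p = 1.55e-07) and by 0.54 in females (SE 0.14, adjusted p = 0.00108). Smooth muscle markers fell beside it, 4 of 4 in both sexes, and their part in this fall was not tested.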

How the data were processed

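Strand-specific RNA-seq libraries of 48 mouse aortas gave the deposited table of expected counts per gene, which the authors estimated per library with RSEM 1.3.1 and Bowtie2 on GRCm39 (the submitters' processing notes) without scaling to library size. The strand setting of the counting is not given in the sources used here. Expected counts were rounded to whole numbers; 4.99% of values, none of a member, were not whole. Totals were 13548000 to 17281273 per library.

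Groups came from the sample labels. All 48 libraries and 6 group means were fitted with edgeR 4.0.16 (R 4.3.3; filterByExpr, TMM, robust quasi-likelihood), and p-values were adjusted by Benjamini-Hochberg over 14431 genes. DEGs passed an adjusted p of 0.05 and differed by 1 or more in log2, up or down. CPM used TMM library sizes, and log2 values a pseudocount of 0.5. Permutation tests of relative levels enumerated all arrangements of libraries with numpy 2.4.6, in code checked against scipy 1.17.1. The edgeR and permutation code was tested on simulated data. Lengths of the longest transcripts came from a GRCm38 annotation, and promoters from RefSeq on GRCm38.p6, where 5 of 9 members matched. The members, marker lists and related genes were chosen with earlier results of these data known. The text names all members, 5 related genes chosen by name and the related genes with the highest and the lowest log2 fold change of each subgroup in FeAAD vs FeCon, except 1 gene that is not reported here; other DEGs it names were picked after their values were seen. Likeness used genes averaging at least 10 counts. Alternatives were DESeq2 1.42.0, its size factors, no filter, no robust estimation, compared groups only, a replicate block, other references, a pseudocount of 0.1 and fits without single libraries, of which MaCon2, MaAAD7, FeAAD5 and FeAAD9 were added after seeing the data.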

Additional observations from a re-analysis of the deposited data

Results flagged for a closer look

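Among 54 groups of libraries (9 genes in 6 groups), 3 held a library that stood far from the rest of its group, and chance alone marks about 1 in 20. Icam1 was at 58.8 CPM in FeNonAD8, where the next FeNonAD library held 32.0 CPM; that library also had the most pan-leukocyte marker RNA of its group (223 CPM, next 118 CPM). Itgal was at 15.8 CPM in MaCon2, against 3.81 CPM in the next MaCon library, beside the T cell marker sum of 99.9 CPM (next 11.2 CPM). Itgb2 was at 189 CPM in FeAAD5, against 53.7 CPM in the next FeAAD library, beside 878 CPM of neutrophil markers (next 200 CPM), 1297 CPM of macrophage markers (next 650 CPM) and 1055 CPM of pan-leukocyte markers (next 356 CPM). The part of these cell types in the 3 values was not tested.

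Of 27 sex differences in response tested (9 genes, 3 responses), that of Icam1 in AAD vs Con passed, at 0.89 on the log2 scale (male response minus female response, edgeR adjusted p = 0.0425, with 0.0170 to 0.0789 over the alternatives tried).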

How the results depend on the processing

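The counts of members called in MaAAD vs MaCon, FeAAD vs FeCon and FeAAD vs FeNonAD stayed within 1.5 times their value in all alternatives tried, as did 139 of 178 counts in all. Of 558 fold changes of single members, 528 kept direction and call, 16 gained and 13 lost the call, and Sele in FeNonAD vs FeCon turned from -0.27 to 0.02 without FeCon10 (fits without 1 library -0.67 to 0.02). The DEGs in MaNonAD vs MaCon numbered 1, 2 in compared groups only, and 0 to 1 without single libraries. In MaAAD vs MaNonAD they numbered 1, 3 with DESeq2 size factors, 4 with DESeq2, 2 without robust estimation, 0 in compared groups only, 0 without the filter and 0 to 3 without single libraries; over all genes 51 were called there, 518 by DESeq2, 168 with its size factors, 99 without robust estimation, 355 without MaNonAD1 and 0 in the other fits named. Over all genes there were 69 DEGs in MaNonAD vs MaCon, 141 in compared groups only, 15 without MaNonAD1 and 36 without MaNonAD3. In MaCon vs FeCon the count was 1, 2 by adjusted p alone and 0 without FeCon10 or MaCon2, and for the sex difference in AAD vs Con 0, and 1 by adjusted p alone. The cause of these shifts was not tested.

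With the replicate number as a block (replicate block) the member DEGs were 0 in MaNonAD vs MaCon (Vcam1 1.01, adjusted p = 0.105), 0 in MaAAD vs MaNonAD (Itgam 2.02, adjusted p = 0.229) and 0 in MaCon vs FeCon, and Icam1's sex difference was 0.89 (adjusted p = 0.0586). The numbers did not pair the mice: same-numbered libraries correlated at -0.06 to 0.16 on average, and at most 2 in any pair of groups correlated best with their own number.

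Members with a changed relative level numbered 0 in MaNonAD vs MaCon (0 to 3 without single libraries), 2 in FeNonAD vs FeCon (2 also without FeNonAD8, where Icam1 took the place of Vcam1, 4 against Ptprc and Pecam1 alone, 1 against Cdh5 alone), 1 in MaAAD vs MaNonAD (4 and 0 against the same references, 0 with a pseudocount of 0.1, 0 without single libraries) and 2 in FeAAD vs FeNonAD (1 against Cdh5 alone, 2 to 5 without single libraries, with 5 without FeNonAD8). Correlated partner pairs numbered 3, 0 relative to the pan-leukocyte list, 0 without the 2 farthest libraries and 1 to 3 without single libraries, with 1 without MaAAD7. With 4 MaNonAD libraries, and with Sele at 8 to 26 counts in MaCon, differences there were poorly resolved.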
